A study of Ostreococcus tauri with 84 samples.

Results

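The steady genes of Ostreococcus tauri, a marine green alga of minimal cell size, are those whose RNA level moved least over the day under both photoperiods. They were chosen by their values: every mean of 3 samples at the 6 time points of a long day (LD, 16 h light and 8 h dark) and at the 6 time points of a short day (SD, 8 h light and 16 h dark) was at least 20 FPKM, and the highest mean was at most 1.6 times the lowest within LD and within SD. Of 7668 genes, 204 met this rule. FPKM, fragments per kilobase of exon and scaled to mapped reads, gives a transcript's share of its library corrected for length, so a change in RNA per cell or in the mix of cell cycle stages cannot be told apart from a change of a gene. The data held 84 libraries of strain RCC4221 grown in photochemostats, with 18 in LD, 18 in SD, and 12 each in constant light (LL) and constant darkness (DD) after LD and after SD. Times count in hours from dawn (ZT) or from subjective dawn in free running (CT), and free-running samples were taken after 1 day without sampling. Samples of a time point, numbered 1 to 3 in LD and SD, 4 and 5 in LL, and 6 and 7 in DD, were taken on successive days from a running culture. The p-values therefore rest on the spread between libraries of a time point and not on independent cultures. The main tests of levels counted the libraries of 1 number as separate, although they deviated together. Counts with 1 value per regime and number are therefore given beside them, except for the contrast between the steps into constant light. By the study's methods SD cultures were diluted more slowly than LD cultures, so photoperiod, culture and dilution rate cannot be told apart between LD and SD, nor can a free-running regime be told apart from the later days on which it was sampled.

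Constitutively expressed genes carry out functions that a cell needs at all hours, and they are the usual source of internal references for RT-qPCR, where actin, tubulin, GAPDH or elongation factor genes are often used. In Ostreococcus most of the transcriptome follows the light and dark cycle, because photosynthesis, starch turnover, DNA replication and cell division each have their hour of the day. A gene that stays level under a day and night cycle may still differ in its mean level between photoperiods, or may start to move when the cycle is removed. Hours were examined in the free-running regimes, whose libraries had no part in the choice of the genes. Levels were examined between regimes, in part with the LD and SD libraries that the choice did use.

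Mapped reads per library, estimated from the lowest FPKM values, ranged from 510000 to 8660000 in LD, from 5670000 to 11480000 in SD, from 2080000 to 11720000 in LL and from 4520000 to 14230000 in DD. The shallowest were number 3 of LD at ZT0, ZT4 and ZT8 with 510000, 780000 and 1500000 reads. Genes at 0 numbered 42 to 1007 per library. Number 3 of SD at ZT4 had 984 genes at 0, although its estimate was 6040000 reads. Among the steady genes 7 had a library under 0.25 of the median of their regime, and 4 of these libraries were number 3 of LD. The most extreme were ostta19g00530, listed at 0 in SD at ZT4 number 3 beside 354 and 363 FPKM in the other samples, and ostta01g02480, an aspartate-semialdehyde dehydrogenase of amino acid synthesis, at 0.347 FPKM in LD at ZT0 number 1 beside 572 and 438 FPKM.

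The steady genes were of moderate expression. Their mean over LD and SD ranged from 23.8 to 661 FPKM with a median of 54.0 FPKM, while the other 3218 genes whose 12 means all reached 20 FPKM had a median of 102 FPKM. The highest were multiprotein bridging factor 1 (ostta15g02760), a transcriptional coactivator, and a subunit of the general transcription factor TFIIA (ostta02g00093). In ostta15g02760 the values ran from 434 to 1001 FPKM in LD (median 624) and from 536 to 942 FPKM in SD (median 663). Its LL and DD libraries lay between 402 and 878 FPKM, so all 6 regimes overlapped and no level comparison passed the threshold.

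Of the 204 genes, 121 (59.3%) carried a named annotation, against 71.0% of all genes, and 83 had none and are known by identifier only. Names came from the study's supplementary tables of rhythmic genes and proteins, where 157 of the 204 and 6935 of all genes had a line. The shares therefore depend on which genes those tables list, and a trait of the steady genes cannot be read from them. By their titles, those tables list genes or proteins that the study called rhythmic under some regime. Steady here therefore means a narrow range by the rule, and not that the study found no rhythm. The daily ratio, which is the highest over the lowest mean of a time point, was 1.6 at the edge of the rule. Just inside were ostta02g05140 (nucleotide sugar epimerase), ostta15g00480 (a protein kinase) and ostta14g02850 (unnamed), each at 1.597 in SD. Just outside were ostta02g00340 (glycerol-3-phosphate acyltransferase of the chloroplast) at 1.6002 and ostta03g05050 (an FAD-dependent oxidoreductase) at 1.6011 in SD, and ostta02g01350 (the regulatory subunit of casein kinase II) at 1.6012 in LD. The rule therefore cuts a continuous range and does not separate a class of its own: 402 genes of at least 20 FPKM stayed within 1.6 in LD and 940 in SD. The membership also moved with the samples used. Without number 1 of LD and SD only 104 genes met the rule (84 of them among the 204), without number 2 it was 122 (101 shared), and without number 3 it was 201 (114 shared).

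Among genes whose annotation held words of common RT-qPCR references, the share of steady genes was near that of all genes at or above the floor. The words matched relatives too, such as actin-related proteins and genes with a tubulin/FtsZ domain, and many matches were cyclophilin-type genes. The only match for elongation factor 1 was a transcription elongation factor (ostta01g02380), not a translation factor. No matched annotation named EF1 alpha, which the study used as its RT-qPCR reference. Of 26 such genes at or above the 20 FPKM floor, matched by words for actin, tubulin, elongation factor 1, GAPDH or cyclophilin, 2 (7.69%) were steady. The share of all 3422 genes at or above the floor was 5.96%, but it counts genes with and without an annotation. The word match could find only annotated genes, so these shares have different bases. The 2 were a gamma tubulin complex protein 3 (ostta05g01820), which nucleates microtubules, and an Arp2-type actin-related protein (ostta14g02920). The mean of ostta05g01820 was 189, 165, 229, 187, 133 and 134 FPKM in LD, SD, LL after LD, LL after SD, DD after LD and DD after SD, with daily ratios between 1.15 and 1.39. The other gene, ostta14g02920, had means of 65.9, 57.3, 70.0, 62.9, 54.3 and 59.2 FPKM in the same order. Over the 26 genes the median daily ratio was 3.40 in LD and 1.83 in SD, and over all genes at or above the floor it was 2.43 and 1.92. Among those that were not steady, picked here for their names, the beta tubulin gene ostta01g02210 had a daily ratio of 7.02 in LD and 8.07 in DD after SD, and the actin gene ostta16g00430 had 9.34 in LD. A GAPDH gene, ostta10g03420, had daily ratios of 4.23 in LD and 6.06 in SD.

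Counts per functional list stand beside the same 5.96%, with the same limit. Lists were filled by annotation words, so the 83 steady genes without a named annotation could enter none of them. A list share above or below 5.96% is therefore a description, and a low share may come in part from missing names. Steady genes made up 2 of 96 ribosomal protein genes, 1 of 77 genes of translation factors and aminoacyl-tRNA synthetases, 0 of 76 chaperone genes and 2 of 75 genes of photosynthesis and pigments. They made up 2 of 32 proteasome genes, 1 of 38 of the ubiquitin system, 1 of 30 of splicing and mRNA processing, 2 of 57 of chromatin and 1 of 45 of mitochondrial transport and respiration. Vesicle traffic had 5 of 63, transporters and carriers 6 of 113, protein kinases 3 of 54, protein phosphatases 1 of 11, and RNA polymerases and general transcription 3 of 37. The list with the highest share was DNA replication and cell cycle with 3 of 9 genes (33.3%), all 3 on chromosome 2. That list had 47 genes in all, and 38 of them fell below 20 FPKM at 1 or more of the 12 means, so the floor took out most of it. The 3 genes were cyclin A/B/D/E (ostta02g00150), another cyclin (ostta02g02550) and the replication helicase subunit Mcm3 (ostta02g00690). The study reports a peak of ostta02g00150 at ZT0 in LD and at ZT20 in SD, so level here means within the ratio limit. Cyclins activate the kinases that drive the cell cycle, and not every cyclin gene was level: ostta18g01570, chosen after its values were seen, had a daily ratio of 19.2 in LD and 9.46 in SD.

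Within the 1.6 limit some genes hardly moved. The fructose-1,6- or sedoheptulose-1,7-bisphosphatase gene ostta14g01010, of a family that serves the Calvin cycle and sugar synthesis, had daily ratios of 1.26 in LD and 1.24 in SD, and its libraries ran from 86.8 to 126 FPKM in LD (median 100) and from 73.9 to 151 FPKM in SD (median 113). The myo-inositol-1-phosphate synthase gene ostta02g03070, for the first step of inositol synthesis, had daily ratios of 1.26 in both. These values chose the genes and are given as a description. They also include the spread between days: the median SD between sample numbers at a time point was 0.31 on the log2 scale in LD and 0.24 in SD for the steady genes, and 0.35 and 0.29 for the other genes at or above the floor.

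**Figure D1:**
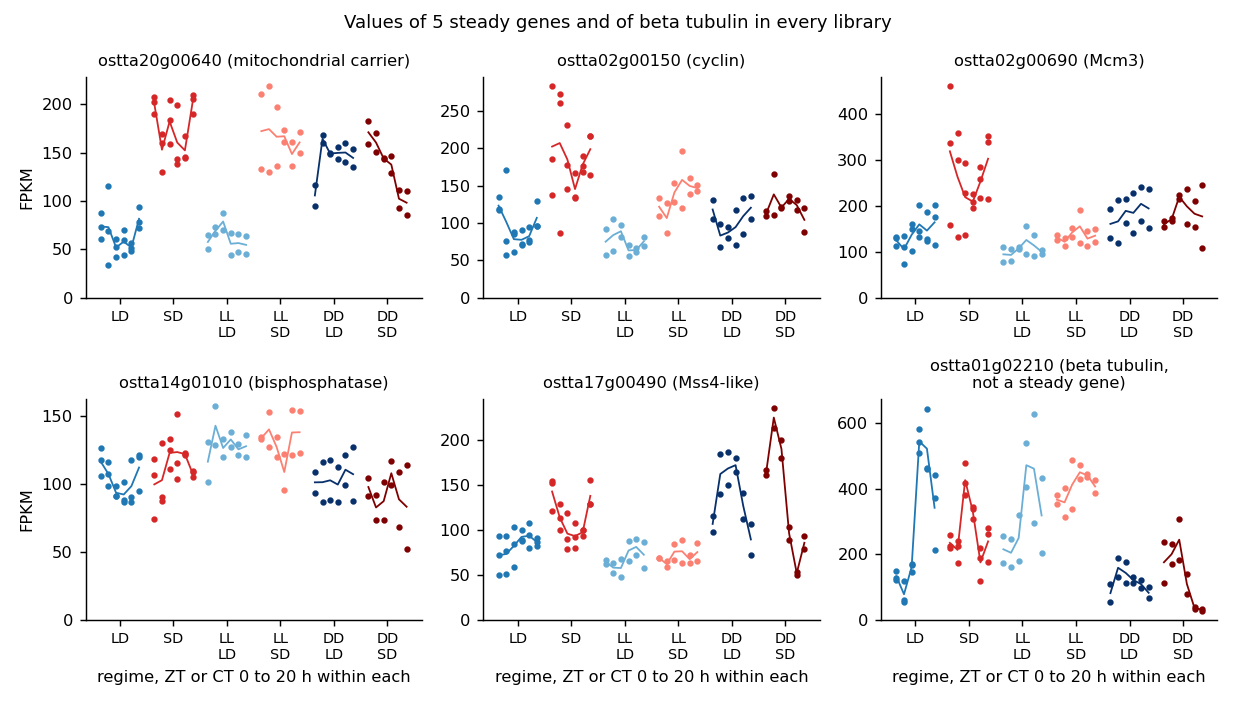
FPKM (y axis, linear from 0) of 5 steady genes and, for contrast, a beta tubulin gene in every library; each regime runs from 0 to 20 h along the x axis, LL LD and the like stand for LL after LD, points are libraries and lines join the means of a time point. The mitochondrial carrier ostta20g00640 lies between 34.1 and 115 FPKM in LD and between 129 and 209 FPKM in SD, while beta tubulin has a daily ratio of 7.02 in LD.

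The first question is whether genes that were level under a day and night cycle stayed level without it. In constant light most did. The median daily ratio of the steady genes in LL was 1.31 after LD and 1.28 after SD, with highest values of 1.96 and 1.75. In LL after LD 189 of the 204 (92.6%) stayed at or under 1.6, where 40.7% of all genes did, and in LL after SD 201 (98.5%) did, where 72.7% of all genes did. The other genes at or above the floor had medians of 1.56 and 1.32, so in LL after SD, where most of the transcriptome was level, the steady genes stood less apart.

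Tested for any change over the 6 time points with limma, 0 of the 204 passed an adjusted p of 0.05 in LL after LD, where 5.65% of all genes passed, and 0 in LL after SD, where 0.0782% of all genes passed. At an unadjusted p of 0.05 the counts were 6 and 3, beside 27.5% and 3.82% of all genes. With the sample number as a block, 5 passed in LL when LD came before it and 0 when SD did, beside 19.6% and 0.104% of all genes. With 24 h cosine and sine terms in place of the time points the counts were 2 and 0, beside 19.0% and 0.17%, and leaving out number 5 of LL after LD gave 2, beside 14.3%.

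**Figure D2:**
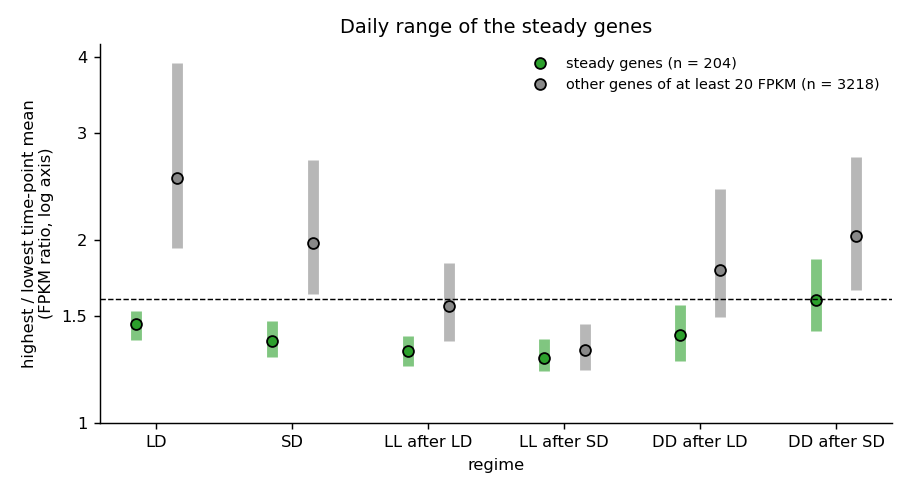
Daily ratio, highest over lowest mean of a time point (y axis, log scale), by regime (x axis) for the 204 steady genes in green and the other 3218 genes at or above 20 FPKM in grey; circles are medians, bars run from the lower to the upper quartile, and the dashed line marks the limit of 1.6. LD and SD chose the genes; outside them the steady genes have medians of 1.31, 1.28, 1.40 and 1.59 against 1.56, 1.32, 1.78 and 2.03.

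In constant darkness more of them moved. The median daily ratio in DD was 1.40 after LD and 1.59 after SD, the highest values were 2.715 and 4.36, and 11 and 32 genes reached a ratio of 2. In DD after LD 162 (79.4%) stayed at or under 1.6, beside 27.6% of all genes, and in DD after SD 105 (51.5%) did, beside 14.7% of all genes. Over all 4 free-running regimes 88 steady genes (43.1%) stayed at or under 1.6, compared with 331 (10.3%) of the other genes at or above the floor. A ratio of 2 was never passed by 167 of them, and 37 passed it in at least 1 free-running regime.

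In DD after LD 2 steady genes (0.98%) changed over time by limma, beside 14.6% of all genes (at an unadjusted p of 0.05, 11 steady genes and 28.4% of all genes). In DD after SD 29 (14.2%) changed, beside 34.1% of all genes. DD libraries of the same number deviated together, so both were fitted again with the number as a block: 24 (11.8%) then passed in DD after LD beside 38.2% of all genes, and 90 (44.1%) in DD after SD beside 63.4%. Each of these shares was below that of all genes, but the genes that passed show that the 204 cannot as a whole be called genes without daily change in darkness. None of the 204 passed in either DD regime without number 6 or without number 7 of that regime, which leaves 1 library per time point and reduced the calls over all genes to between 0 and 295.

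The largest daily change in DD was that of ostta17g00490, an Mss4-like gene, a fold shared by Rab-binding proteins and methionine sulfoxide reductases. In DD after SD its pairs of libraries gave 167 and 161 FPKM at CT0, 236 and 214 at CT4, 200 and 181 at CT8, 103 and 89.1 at CT12, 53.2 and 50.2 at CT16, and 78.2 and 93.0 at CT20. Its high hours were the early ones, and no library from CT0 to CT8 overlapped with one from CT12 to CT20. The daily ratio was 4.36 (limma adjusted p = 0.000162, and 4.3e-06 with the block). In DD after LD it was highest at CT12 with 180 and 164 FPKM and lowest at CT20 with 106 and 72.4 FPKM (adjusted p = 0.0237), so its hour of the highest mean differed between both darkness regimes, which was not tested. Under the light and dark cycles that chose it, the daily ratio was 1.30 in LD and 1.53 in SD.

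The other gene that passed in DD after LD was ostta05g03460, which has no named annotation. Its pairs there rose from 35.4 and 53.1 FPKM at CT0 to 93.7 and 105 at CT12 and stood at 60.8 and 67.7 at CT20 (daily ratio 2.25, adjusted p = 0.0182). In DD after SD it changed as well (daily ratio 1.99, adjusted p = 0.0277).

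Among the 29 that changed in DD after SD, the ratios next in size after ostta17g00490 were those of a voltage-dependent channel gene (ostta18g00690, 2.75, adjusted p = 0.0319), an acyl-ACP thioesterase gene (ostta01g06660, 2.60, adjusted p = 0.0364), whose enzyme releases fatty acids from their carrier in the plastid, and the Bystin gene (ostta14g03050, 2.36, adjusted p = 0.0229), whose yeast counterpart is needed to build the small ribosomal subunit. Of the 29, 18 had their highest mean at CT8 and 7 at CT12. The SNARE gene ostta11g01710 of membrane fusion, an RNA polymerase beta subunit gene (ostta01g01720) and the kinase gene ostta11g00890 were among those with CT8, at daily ratios of 1.64, 2.00 and 1.86. The thioesterase differed, with its highest mean at CT16. None of the 29 had it at CT20.

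That absence was shared by the whole set. The median distance of the steady genes from their own daily mean was 0.14 at CT8 and -0.31 at CT20 in DD after SD on the log2 scale, and for the other genes at or above the floor it was 0.13 and -0.29. Only 1 of the 204 had its highest mean at CT20. Scaling each library to a common upper quartile brought the CT20 median of the steady genes to -0.02. With that scaling 9 of the 204 changed over time in DD after SD, 5 of them among the 29, beside 35.2% of all genes, and without both CT20 libraries 13 changed, all among the 29, beside 26.5% of all genes. The alternative without CT20 was chosen after seeing the data.

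**Figure D3:**
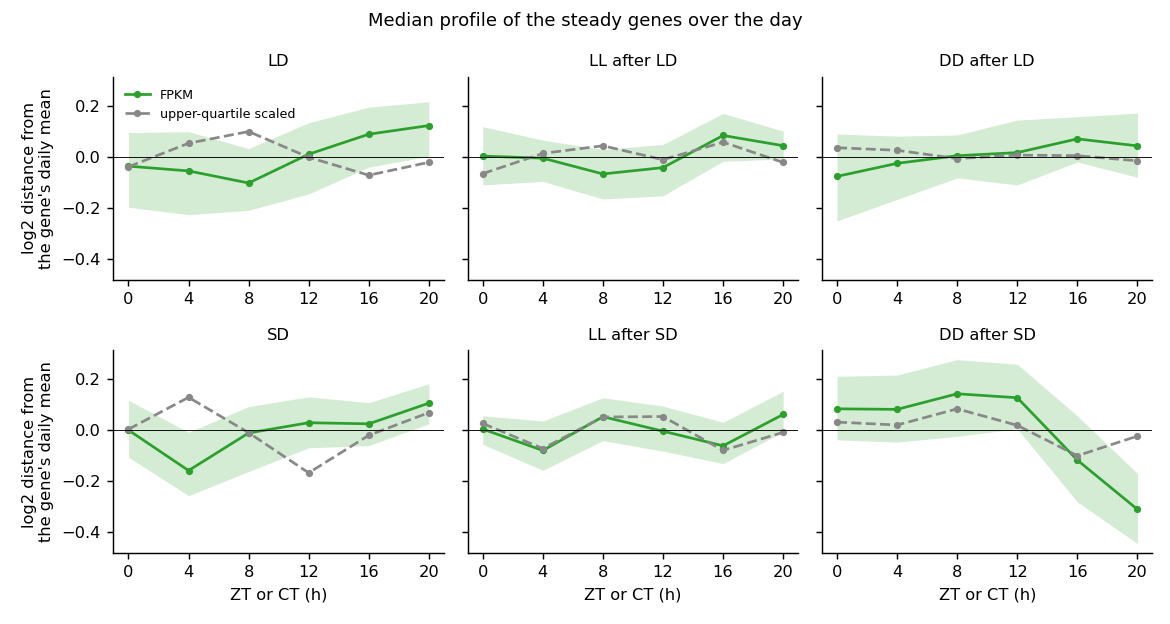
Median over the 204 steady genes of the log2 distance of each time point from the gene's daily mean (y axis) against ZT or CT in h (x axis), 1 panel per regime; the green line is deposited FPKM with the range from lower to upper quartile shaded, and the dashed grey line is FPKM scaled to a common upper quartile. In DD after SD the green line falls to -0.31 at CT20 and the scaled line is at -0.02 there.

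In LD and SD the same genes, within their narrow range, were not spread evenly over the hours. Of the 204, 68 had their highest mean at ZT20 and 46 at ZT16 in LD, and 9 at ZT8. In SD 58 had it at ZT20 and 15 at ZT4. These counts belong to the values that chose the genes, and in LD the medians of the set ran from -0.10 at ZT8 to 0.12 at ZT20 in FPKM but from 0.10 to -0.02 after upper-quartile scaling, so the order of the hours turned with the scaling.

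Seen over all 36 means of time points and regimes, 57 steady genes stayed within 2-fold. The narrowest was ostta01g01110, which has no named annotation: its 36 means ran from 64.1 to 89.2 FPKM, a ratio of 1.39. Its single libraries ran from 56.5 to 94.2 FPKM in LD (median 75.2), from 42.5 to 89.2 in SD (75.8), from 61.1 to 83.4 in LL after LD (69.3), from 65.1 to 87.4 in LL after SD (79.2), from 54.3 to 89.0 in DD after LD (73.2) and from 52.8 to 94.0 in DD after SD (79.5). All 6 regimes overlapped over nearly their whole range, and no comparison of levels or hours passed the threshold for it.

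Next in that order, chosen after their values were seen, came ostta14g00170 without annotation (1.52, means from 80.0 to 122 FPKM) and the gene of glucosamine-fructose-6-phosphate aminotransferase (ostta05g04070, 1.55, from 69.8 to 108 FPKM), the first enzyme of amino sugar synthesis. They were followed by Tudor-SN (ostta15g01460, 1.58), a nuclease known from the RNA silencing complex of animals, a GUN4-like gene (ostta07g00385, 1.61), of a family that assists chlorophyll synthesis in plants, and an adenylate kinase gene (ostta09g00980, 1.62), whose enzyme balances adenine nucleotides. Their mean levels ranged from about 20.5 to 122 FPKM.

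The second question is whether the level around which these genes stayed was the same in every regime. Here 103 of the 204 (50.5%) had 6 regime means within 1.5-fold, compared with 693 (21.5%) of the other genes at or above the floor. The comparisons of LL after SD with LL after LD and of DD after SD with DD after LD rest on libraries outside the rule. Those with LD or SD rest on the libraries that chose the genes: the ratio limit was set within each regime and used no difference between them, but the floor of 20 FPKM used the levels, so their counts describe the chosen genes and are not independent of the choice. For all of them limma was used on the mean of log2(FPKM + 1) over the 6 time points.

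In SD, 74 steady genes (36.3%) were higher than in LD and 25 (12.3%) were lower, beside 28.7% and 20.1% of all genes. The changes were small: the median size was 0.18 on the log2 scale against 0.30 for all genes, and 1 of the 204 passed 2-fold. With 1 value per regime and sample number, which leaves 3 against 3, 40 were higher and 7 lower.

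The gene past 2-fold was ostta20g00640, of the mitochondrial carrier family, whose proteins move metabolites across the inner membrane. In LD its 18 libraries ran from 34.1 to 115 FPKM (median 60.3) and in SD from 129 to 209 FPKM (median 176). The groups did not overlap. It was 1.46 ± 0.10 (SE) higher in SD on the log2 scale (adjusted p = 1.7e-14, and 0.00016 with 1 value per number).

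The genes next in size were a histone deacetylase gene (ostta02g01510), whose enzyme removes acetyl groups from histones, and the cyclin gene ostta02g00150. In ostta02g01510 the libraries ran from 46.3 to 106 FPKM in LD (median 69.8) and from 70.6 to 245 FPKM in SD (median 138). For ostta02g00150 they ran from 57.4 to 172 FPKM in LD (median 89.0) and from 86.7 to 284 FPKM in SD (median 177). In both the SD median lay above all LD libraries while the ranges overlapped. The differences were 1.00 ± 0.14 (adjusted p = 1.44e-07) and 0.96 ± 0.13 (adjusted p = 5.89e-08), and both held with 1 value per number (adjusted p = 0.0025 and 0.0032).

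Lower in SD were ostta01g01400 without named annotation, an oxidoreductase gene with an NADP-dependent domain (ostta05g00340), and ostta10g01960 without named annotation. For ostta01g01400 the LD libraries ran from 54.1 to 113 FPKM (median 93.0) and the SD libraries from 32.3 to 86.8 (median 54.9), a difference of -0.65 ± 0.10 (adjusted p = 2.48e-06, and 0.017 with 1 value per number). In ostta05g00340 they ran from 60.4 to 172 FPKM (median 99.3) and from 42.9 to 85.4 (median 64.2), a difference of -0.58 ± 0.09 (adjusted p = 5.32e-07, and 0.0031). Ranges overlapped in both. The value of ostta10g01960, -0.58 ± 0.18 (adjusted p = 0.00587), no longer passed without number 1 of SD (-0.36, adjusted p = 0.131), without number 2 of SD (-0.42, adjusted p = 0.088) or with 1 value per number (adjusted p = 0.14).

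By list, all 3 steady genes of DNA replication and cell cycle were higher in SD, as were 4 of the 6 transporters and carriers (none lower) and 2 of the 3 kinases (none lower). Among all genes of these lists at or above the floor, 5 of 9, 68 of 113 and 28 of 54 passed in either direction, and the 3 replication and cell cycle genes all belong to the stretch of chromosome 2 described further on, where most other genes were higher too. Among transporters these included ostta02g01100 of the major facilitator superfamily (0.84 ± 0.09, adjusted p = 8.59e-10) and the triose-phosphate transporter gene ostta09g02510 (0.52 ± 0.08, adjusted p = 8.69e-07), of a family that exports sugar phosphates from plastids. Of the 5 vesicle traffic genes 1 was higher, the adaptin gene ostta02g02420 (0.63 ± 0.13, adjusted p = 6.69e-05), and 1 was lower, the SNARE gene ostta11g01710 (-0.34 ± 0.09, adjusted p = 0.00183), beside 29 of 63 in either direction. Both ostta02g01100 and ostta02g02420 also belong to that stretch of chromosome 2. Both steady genes of the reference gene list were slightly lower in SD, beside 13 of 26 in either direction, by -0.19 for ostta05g01820 (adjusted p = 0.0149) and by -0.20 for ostta14g02920 (adjusted p = 0.00678). Neither of these passed with 1 value per number (adjusted p = 0.185 and 0.143), nor did ostta11g01710 (0.137).

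**Figure D4:**
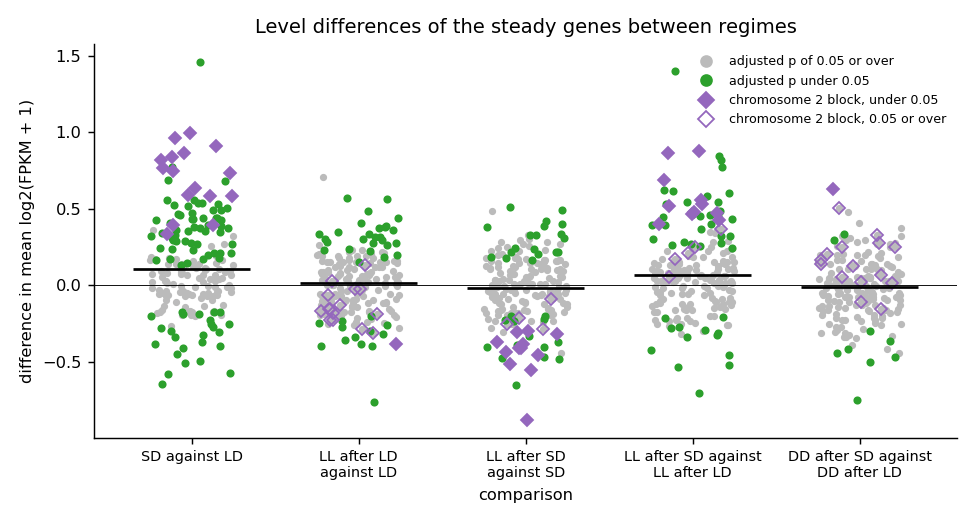
Difference in mean log2(FPKM + 1) of the 204 steady genes (y axis) for 5 comparisons between regimes (x axis); each point is a gene, coloured where its adjusted p is under 0.05, diamonds are the 16 genes of the chromosome 2 block described in the text, and black bars are medians. In SD against LD the diamonds lie between 0.33 and 1.00 above a median of 0.10, and in LL after SD against SD they lie between -0.88 and -0.09.

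The move from LD to constant light changed fewer of them. In LL after LD 27 steady genes (13.2%) were higher than in LD, beside 23.2% of all genes, and 14 (6.86%) were lower, beside 5.05%. The median difference of the set was 0.02 where that of all genes was 0.14. Upper-quartile scaling gave 20 higher and 16 lower. Without number 5 of LL after LD 15 changed, without number 4 it was 26, and with 1 value per number it was 3.

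The clearest increase was in ostta02g05140, the nucleotide sugar epimerase gene, whose enzyme class converts sugars for polysaccharides and glycoproteins. Its libraries ran from 107 to 189 FPKM in LD (median 155) and from 200 to 251 FPKM in LL after LD (median 229). They did not overlap. The difference was 0.57 ± 0.06 (adjusted p = 3.94e-10, and 0.011 with 1 value per number).

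A gene for a nucleolar GTPase of the GNL3 kind (ostta07g01110) showed the same size, with 95.8 to 155 FPKM in LD (median 127) and 145 to 214 FPKM in LL after LD (median 182), a difference of 0.57 ± 0.06 (adjusted p = 9.44e-10, and 0.0078). The ranges overlapped only between 145 and 155 FPKM. Next in size was ostta03g03220 without named annotation (0.48 ± 0.12, adjusted p = 0.00271, and 0.166 with 1 value per number). Lower were ostta03g03880 without named annotation (-0.76 ± 0.20, adjusted p = 0.00387), ostta12g00270 without annotation (-0.40 ± 0.10, adjusted p = 0.00301) and a rubredoxin gene (ostta12g02510, -0.39 ± 0.08, adjusted p = 0.000314), of small iron proteins that carry electrons. Both unnamed genes no longer passed without number 4 of LL after LD (adjusted p = 0.242 and 0.0801), and none of the 3 passed with 1 value per number (0.13, 0.15 and 0.13).

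From SD to constant light, 19 steady genes (9.31%) were higher in LL after SD than in SD and 26 (12.7%) were lower, beside 24.2% and 11.4% of all genes. All genes shifted up by a median of 0.11 here and the steady genes by -0.02. Upper-quartile scaling moved these medians to 0.03 and -0.11, and the split to 8 higher and 45 lower. The count was 79 without number 3 of SD, 28 without number 1 of SD, 20 without number 5 of LL after SD, and 10 with 1 value per number.

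Lowest against SD was Mcm3 (ostta02g00690), a subunit of the helicase that unwinds DNA at replication origins. Its libraries ran from 131 to 461 FPKM in SD (median 242) and from 112 to 191 FPKM in LL after SD (median 131). Most SD libraries were above all LL libraries, and those that were not, with 158, 131 and 137 FPKM, were number 3 at ZT0, ZT4 and ZT8. The difference was -0.88 ± 0.15 (adjusted p = 8.92e-06, and 0.026 with 1 value per number). ostta17g00490 fell from a median of 110 to 67.6 FPKM (-0.65 ± 0.10, adjusted p = 1.28e-06) and the cyclin gene ostta02g02550 from 498 to 304 FPKM (-0.55 ± 0.12, adjusted p = 0.000475). Higher in LL after SD were ostta03g03220 without named annotation (0.51 ± 0.12, adjusted p = 0.00121, and 0.11 with 1 value per number), inositol monophosphatase (ostta06g00880, 0.49 ± 0.10, adjusted p = 0.000148) and a class 3 lipase gene (ostta06g04420, 0.42 ± 0.06, adjusted p = 1.73e-07).

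After both histories had ended in the same constant light, 42 steady genes (20.6%) were higher and 13 (6.37%) lower in LL after SD than in LL after LD, beside 19.1% and 13.8% of all genes. Without number 4 of LL after SD 23 passed, and with 1 value per number 17. Again ostta20g00640 differed most: its libraries ran from 44.5 to 87.1 FPKM in LL after LD (median 64.8) and from 130 to 219 FPKM in LL after SD (median 161). They did not overlap, and the difference was 1.40 ± 0.13 (adjusted p = 1.95e-11, and 0.001 with 1 value per number).

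It was followed by ostta02g01510 (0.88 ± 0.17, adjusted p = 8.01e-05) and ostta02g00150 (0.87 ± 0.16, adjusted p = 3.13e-05), which had also been the next in SD against LD. Those comparisons share no libraries, but LL after SD came from the SD cultures and LL after LD from the LD cultures. Lower in LL after SD were a beta-lactamase-like gene (ostta02g03700), of a fold shared by many metal hydrolases, ostta06g02820 without named annotation, and ostta05g00340. For ostta02g03700 the libraries ran from 52.8 to 78.8 FPKM in LL after LD (median 67.4) and from 25.1 to 49.7 FPKM in LL after SD (median 43.9). The groups did not overlap (-0.70 ± 0.10, adjusted p = 2.11e-07, and 0.016 with 1 value per number). The other differences were -0.53 ± 0.08 (adjusted p = 2.56e-06) for ostta06g02820 and -0.52 ± 0.10 (adjusted p = 0.000133) for ostta05g00340.

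The steps into constant light were also compared with each other. The step from SD minus the step from LD passed for 4 steady genes (1.96%), beside 10.6% of all genes: a gene with an interphotoreceptor retinol-binding domain (ostta04g05190, -0.47, adjusted p = 0.00226), an amino acid transporter gene (ostta01g02340, -0.46, adjusted p = 0.0482), ostta02g05140 (-0.24, adjusted p = 0.0466) and ostta06g04420 (0.27, adjusted p = 0.0224).

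In constant darkness fewer steady genes passed between both histories. DD after SD was higher than DD after LD in 3 steady genes (1.47%) and lower in 7 (3.43%), beside 1.24% and 6.61% of all genes. With the block 11 were higher and 16 lower, and upper-quartile scaling gave 9 and 7. Leaving out number 6 of DD after LD left 0, number 7 of DD after LD gave 26, numbers 6 and 7 of DD after SD gave 4 and 6, and with 1 value per number 0 of all genes passed by limma (over the libraries, 41 steady genes and 25.1% of all genes were under an unadjusted p of 0.05).

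The carrier gene ostta20g00640, which had differed most in the light, showed 94.7 to 168 FPKM in DD after LD (median 149) and 85.7 to 183 FPKM in DD after SD (median 144). These ranges overlapped almost entirely, and the difference was -0.10 ± 0.08 (adjusted p = 0.41). The 3 that were higher were ostta02g01510 (0.63 ± 0.17, adjusted p = 0.0331, and 0.013 with the block), a gene with a ferredoxin domain (ostta06g01350, 0.33 ± 0.09, adjusted p = 0.0391, and 0.0054) and ostta06g00960 without named annotation (0.29 ± 0.09, adjusted p = 0.0479, and 0.016). Lower by the largest differences were ostta16g02470 (-0.75 ± 0.13, adjusted p = 0.0049, and 0.0018), ostta18g01560 (-0.50 ± 0.12, adjusted p = 0.0244, and 0.0036) and ostta11g01455 (-0.47 ± 0.11, adjusted p = 0.0203, and 0.0074), none with a named annotation. None of these 6 passed without number 6 of DD after LD or with 1 value per number.

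DD stands in a table of its own, so its levels against LD, SD and LL were compared as differences of means without a test. Against LD, 3 steady genes (1.47%) were at least 2-fold higher in DD after LD and 1 (0.49%) at least 2-fold lower, beside 10.9% and 8.42% of all genes. Against SD, 1 (0.49%) was 2-fold higher in DD after SD and 7 (3.43%) lower, beside 7.77% and 12.3%. Against LL after LD, 3 and 3 (1.47% each) were higher and lower in DD after LD, beside 10.1% and 15.1%. Against LL after SD, 0 were higher and 9 (4.41%) lower in DD after SD, beside 8.15% and 18.7%. All genes shifted here too: the median of all genes was -0.11 from LL after LD to DD after LD and -0.24 from LL after SD to DD after SD on the log2 scale, and 0.01 and -0.06 after upper-quartile scaling, while that of the steady genes went from -0.10 and -0.17 to 0.03 and 0.04.

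Those past 2-fold against LD included ostta20g00640, at a mean log2 difference of 1.18 in DD after LD: its DD libraries, from 94.7 to 168 FPKM, had a median of 149 FPKM beside 60.3 FPKM in LD and 176 FPKM in SD. The others were ostta11g01455 (1.25) and ostta17g02005 (1.10), a hypothetical protein gene, while ostta19g00530 was lower in both DD regimes (-1.58 against LD and -1.35 against SD, with the library at 0 noted above among its SD values). Against SD the gene for Erv1/Alr (ostta16g00350), a sulfhydryl oxidase of mitochondrial protein import in yeast, was lower by the next largest difference: its libraries ran from 254 to 694 FPKM in SD (median 442) and from 85.5 to 299 FPKM in DD after SD (median 194), a log2 difference of -1.32. Only ostta10g01960 was over 2-fold higher in DD after SD than in SD (1.04).

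Of the 74 steady genes that were higher in SD than in LD, 16 lay in 1 stretch of chromosome 2, 4 elsewhere on that chromosome and 54 on other chromosomes. By the chromosome number in their identifiers, 26 of the 204 were on chromosome 2, which is 8.15% of its genes at or above the floor beside 5.96% overall. Chromosomes 9 and 6 had larger shares (9.28% and 8.76%) and chromosome 11 had 8.05%, so chromosome 2 did not stand out by the number of its steady genes. The stretch is that of gene numbers under 3000, a boundary set after the values were seen, so counts for this block are a description and carry no test of it. The block held 6 of the 10 steady genes with the highest mean. Chromosomes 2 and 19 are known in Ostreococcus as outlier chromosomes of low GC content. Base composition was not measured here.

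All 16 were higher in SD than in LD, with a median log2 difference of 0.74 and a range from 0.33 to 1.00, and 13 passed with 1 value per number. Of the 178 steady genes on other chromosomes 54 (30.3%) were higher, with a median of 0.07. The block's other genes at or above the floor behaved alike, with 145 of 188 (77.1%) higher and a median of 0.65. Of all 74 genes of chromosome 19, whether or not at the floor, 59 (79.7%) were higher, with a median of 0.93. Only 33 of those 74 were at or above the floor, so this share has another base. On the other chromosomes 28.4% of the other genes at or above the floor were higher.

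The block held genes of several functions. Beside both cyclins, Mcm3 and the histone deacetylase these were TFIIA (ostta02g00093), which ran from 143 to 716 FPKM in LD (median 427) and from 431 to 1242 FPKM in SD (median 789), a gene of the E2F family (ostta02g01950, chosen with the next one after their values were seen) with means of 223 and 370 FPKM, of transcription factors that act at the start of DNA replication, and an aconitase-type gene (ostta02g02650) with 99.2 and 171 FPKM. They also included the Spt4-like gene (ostta02g01260), of an elongation factor of RNA polymerase II, with a difference of 0.39 ± 0.09 (adjusted p = 0.000368), a SufE-like gene of iron-sulfur cluster assembly (ostta02g01250, 0.39 ± 0.09, adjusted p = 0.0007) and a ribonuclease H-like gene (ostta02g00240, 0.59 ± 0.11, adjusted p = 1.3e-05). With 1 value per number ostta02g01260 and ostta02g01250 did not pass (adjusted p = 0.0751 and 0.0857).

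**Figure D5:**
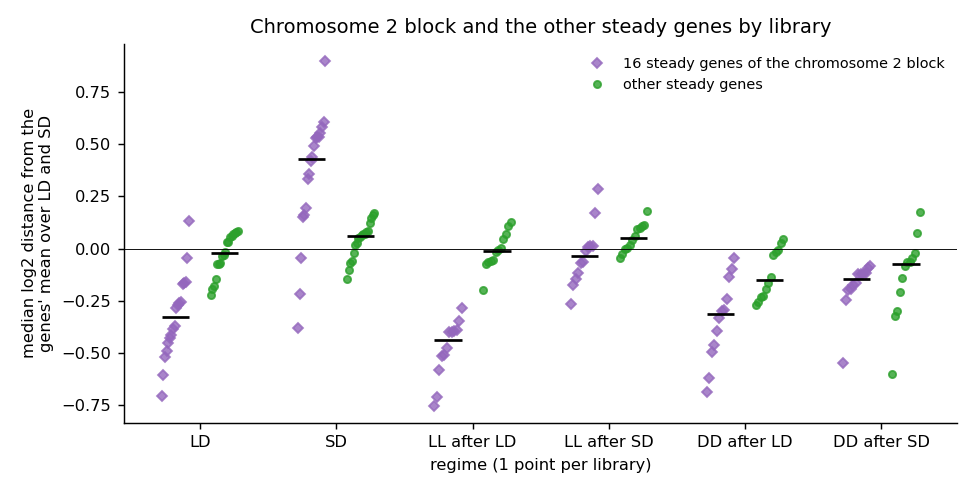
Median log2 distance of the genes from their own mean over LD and SD (y axis) in each library (1 point), by regime (x axis), for the 16 steady genes of the chromosome 2 block (purple diamonds) and the other 188 steady genes (green circles); black bars are medians over libraries. The block lies between -0.71 and 0.13 in LD and between -0.38 and 0.90 in SD, while the other steady genes stay between -0.22 and 0.17 in both.

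Library by library the 16 genes moved as a group. The median distance from their own mean over LD and SD ran from -0.71 to 0.13 in LD (median -0.33) and from -0.38 to 0.90 in SD (median 0.43) on the log2 scale. The lowest SD library was of number 3, whose 6 libraries had a median of 0.19 beside 0.49 and 0.43 for numbers 1 and 2. The other 188 steady genes ran from -0.22 to 0.08 in LD and from -0.15 to 0.17 in SD.

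In LL after LD the block stayed low (from -0.75 to -0.29) and in LL after SD it lay between (from -0.26 to 0.29), and the libraries of both regimes did not overlap. Of the 16, 11 were higher in LL after SD than in LL after LD (median 0.47, and 6 with 1 value per number), and 12 were lower in LL after SD than in SD (median -0.38, and 2 with 1 value per number). The other genes at or above the floor in the block gave 108 of 188 lower in LL after SD than in SD, and the steady genes of other chromosomes 14 of 178. Against LD, LL after LD had a median of -0.16 with 1 of 16 lower.

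In darkness the histories drew together: the block ran from -0.69 to -0.05 in DD after LD and from -0.55 to -0.09 in DD after SD, with a median gene difference of 0.15 and 1 of 16 higher. From SD to DD after SD 15 of the 16 had lower means (median -0.54), where 131 of the other 188 steady genes did (median -0.19).

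Level differences apart, the 16 genes kept their daily steadiness. In all 4 free-running regimes 14 (87.5%) stayed at or under a daily ratio of 1.6, compared with 70 of the 178 steady genes on other chromosomes (39.3%). Among the block's other genes at or above the floor 24 of 188 (12.8%) did, and on other chromosomes 10.2%. The steady genes of the block were also more highly expressed, at a median of 205 FPKM beside 50.4 FPKM for those on other chromosomes, and the part of expression level in this difference was not tested.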

How the data were processed

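RNA-seq was made by the study's authors from 84 libraries of 1 strain, with single reads of 75 nt. The deposited values are FPKM per gene, made by the authors with HISAT2, StringTie and, by the study's methods, Ballgown, on version 3.0 of the genome and its annotation, after FastQC. LD, SD and LL stand in a table of 60 libraries and DD in a table of 24. No read counts were used, and depth was estimated from the step between low FPKM values. Of 182 whole numbers among the DD values, 181 were divided by 1000 (7 in the steady genes). The rule was that division brought the value nearer to the median of its gene's other DD values. 0 columns were left without a sample. Names came from the study's supplementary tables of rhythmic genes and proteins, where 157 of the 204 genes had a line. All 204 genes matched RefSeq locus tags.

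The members, gene lists and comparisons were chosen with earlier results of these data known. log2(FPKM + 1) was fitted in limma 3.58.1 (R 4.3.3) over all 7668 genes, with Benjamini-Hochberg adjustment over all of them and a threshold of 0.05: an F test over 6 time points per free-running regime, in place of the rhythm test of the study, and contrasts of mean levels. Tables were tested separately. The test was also run on simulated data with noise drawn independently for each library, so shared deviations of libraries of 1 number were not part of that run. Tables and plots used Python 3.11.15, numpy 2.4.6, pandas 2.3.3, scipy 1.17.1 and matplotlib 3.10.9. No pair of libraries was identical.

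Genes to name were first listed by a fixed rule: the 10 steadiest and the 10 highest in LD and SD, the largest changes past the threshold in each direction of each comparison, the largest differences of DD from LD and SD, the genes next to the limit, the reference genes, and members of lists with 3 or more. Not all of those are described, and some genes outside the rule are. Same-numbered DD libraries deviated together in 12 of 12 pairs of DD after LD with DD after SD (correlations from 0.402 to 0.683), so the numbers were taken to pair them, which came from the data and not from the labels. For LD with SD 10 of 18 correlations and for LL with LL 0 of 12 were over 0.1, so those were not paired. Libraries of 1 number also deviated together within a regime. Correlations over 0.1 between time points of 1 number were 19 of 45 in LD and 35 of 45 in SD. They were 24 of 30 in LL after LD, 28 of 30 in LL after SD and 30 of 30 in each DD regime. Alternatives were another pseudocount (0.1), a filter on a mean of 1 FPKM, upper-quartile scaling, cosine terms, a replicate block, 1 value per regime and number, DD values as deposited, and leaving out each sample number or a doubtful library. Comparisons deposited or reported by the authors were not used.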

Additional observations from a re-analysis of the deposited data

Results flagged for a closer look

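The step from SD to LL after SD differed from the step from LD to LL after LD, by a limma contrast over all genes, in ostta02g05140, the nucleotide sugar epimerase gene, by -0.24 on the log2 scale (adjusted p = 0.0466), and in ostta06g04420, the class 3 lipase gene, by 0.27 (adjusted p = 0.0224). ostta02g05140 rose by 0.57 in LL after LD, and ostta06g04420 rose by 0.42 in LL after SD. Of all genes 10.6% passed this contrast. It counted libraries of 1 number as separate and was not run with 1 value per number.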

How the results depend on the processing

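The number of steady genes was 377 with upper-quartile scaling, of which 142 were among the 204, 105 at a limit of 1.5, and 104 to 201 without a sample number. With the replicate block the counts of genes changed over time were 5 (from 0) in LL after LD, 24 (from 2) in DD after LD and 90 (from 29) in DD after SD, and the count of level differences between both DD regimes was 27 (from 10). Cosine and sine terms gave 2, 20 and 74 in LL after LD, DD after LD and DD after SD. Upper-quartile scaling gave 9 over time in DD after SD and 16 level differences in DD, and leaving out the CT20 libraries, chosen after seeing the data, gave 13 in DD after SD. One value per regime and number gave level counts of 47 (from 99) for SD against LD, 3 (from 41) for LL against LD, 10 (from 45) for LL against SD, 17 (from 55) between the LL regimes and 0 (from 10) between the DD regimes. Without a sample number, time counts ran from 0 to 2 in LL after LD, from 0 to 0 in both DD regimes, and level counts from 81 to 109 for SD against LD, 15 to 43 for LL against LD, 20 to 79 for LL against SD, 23 to 52 between the LL regimes and 0 to 26 between the DD regimes. The replicate block left 99 level differences between SD and LD and gave 56 between the LL regimes. No paired analysis was possible because LL shares no sample numbers with LD or SD, in the comparisons of LL with them. For the named genes, 264 alternative values kept their call, 36 lost it, mostly in DD and with 1 value per number, and 0 reversed. The causes were not tested. Depth limits LD most, where number 3 was shallowest.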
